A study of Sus scrofa domesticus with 4 samples.

Results

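The genes described here encode the subunits of the pituitary glycoprotein hormones and the receptor that drives the gonadotropes: CGA, LHB, FSHB, TSHB and GNRHR. All array probes whose accession belongs to one of these 5 pig genes were taken, whatever their values, by matching unversioned accessions to the RefSeq annotation of Sscrofa11.1. This gave 5 of the 2459 genes that could be named on the array, and 7 of its 43603 probes. LHB and GNRHR had 2 probes each and the other genes had 1, and each probe was a single spot. Of the 7 probes, 6 were well above background and were tested, and 1 probe of GNRHR was not.

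Luteinizing hormone, follicle-stimulating hormone and thyroid-stimulating hormone are dimers of a common alpha subunit, encoded by CGA, and a beta subunit that gives each hormone its specificity, encoded by LHB, FSHB and TSHB. Gonadotropes make the first pair of hormones and thyrotropes make the last. Gonadotropin-releasing hormone from the hypothalamus acts on gonadotropes through its receptor, a Gq-coupled receptor encoded by GNRHR. Adiponectin is a hormone of adipose tissue that acts through the receptors ADIPOR1 and ADIPOR2 and is studied as a link between energy stores and reproduction.

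The study asked how adiponectin affects the transcriptome of anterior pituitary cells of the pig. Primary cells were dispersed with trypsin from the anterior lobes of mature gilts (Large White x Polish Landrace, 7 to 8 months old), from 4 pituitaries collected at mid-luteal cycle days 10 to 12. The labels elsewhere name the same days as a period of pregnancy. The cells attached for 48 h in medium with horse and foetal calf serum and were then kept for 24 h without serum and with bacitracin. The treated cultures received recombinant human adiponectin at 10 µg/ml and the control cultures did not. Each of 4 two-colour arrays carried treated RNA in one dye and control RNA in the other. Per the channel labels, the red dye Cy5 marked treated RNA on arrays 1 and 3, and the green dye Cy3 marked it on arrays 2 and 4. No label ties an array to an animal, states whether animals were pooled, or states that the treated and control RNA of an array share an animal. The p-values therefore measure the spread between these 4 arrays, which may be technical.

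The cells were a mixture of pituitary cell types. The 5 gonadotrope markers listed (the 4 gonadotrope genes above and NR5A1, a nuclear receptor that drives the gonadotropin genes) and the 4 thyrotrope markers were all tested. The growth hormone gene GH1, the prolactin gene PRL and the ACTH precursor gene POMC were also well above background. Markers outside the hormone cells were read too. Tested were 3 of 6 endothelial markers, 3 of 8 of macrophages and 3 of 6 of posterior lobe and nervous tissue, including OXT. Each of these lists had a probe for 4 genes, and SELE, CD163 and the vasopressin gene AVP had a probe but were not tested. Of the lymphocyte markers, all 7 had a probe and 3 were tested. Over the whole array, 25913 of 43603 probes were tested. The summed level of the gonadotrope list differed by 1.26-fold between the highest and lowest array in control RNA and by 2.23-fold in treated RNA, and most of that sum was the signal of the CGA probe, whose treated level was high where treated RNA was in Cy5. The treated level of CGA alone ranged over 2.21-fold on this scale and over 1.29-fold on that of the scanner software. In such a bulk sample, fewer cells of a type and less RNA per cell cannot be told apart.

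No gene of this group passed the test for a difference between adiponectin and control. In the limma fit with a dye term, 0 of the 6 tested probes had an adjusted p under 0.05, and over all 25913 tested probes the share was 0%. At an unadjusted p under 0.05 the count was also 0 of 6, against 2.77% of all tested probes. The fitted ratio was below 0 for 4 probes, those of LHB, FSHB and CGA, and above 0 for 2, those of TSHB and GNRHR. All 6 intervals held 0, and the adjusted p was 0.99987 for each, which was the smallest adjusted p of the whole table. The median of the 5 genes was -0.07 on the log2 scale, beside 0.0012 over all tested probes. The model's 95% interval had a median width of 0.32 over all tested probes, so a shift of the size fitted here for most of these genes was not detectable with 4 arrays.

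**Figure D1:**
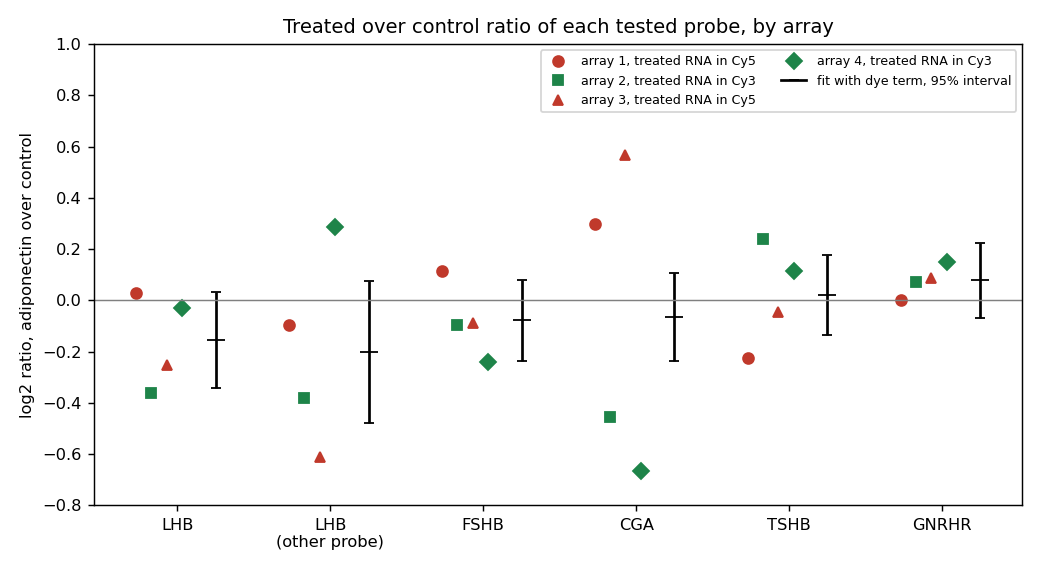
Log2 ratio of adiponectin-treated over control RNA (vertical axis) for the 6 tested probes; each coloured point is 1 array, coloured by the dye of the treated RNA, and the black mark with its bar is the fitted value with its 95% interval. CGA lies above 0 on both arrays with treated RNA in Cy5 and below 0 on both others, GNRHR lies above 0 on all 4 arrays, and all 6 intervals hold 0.

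CGA, the common alpha subunit, was among the brightest features: only 37 to 202 of 43803 spots were brighter in a channel. Its raw median signal in treated and control RNA was 228199 and 111993 on array 1, 100583 and 213508 on array 2, 359861 and 178004 on array 3, and 158306 and 226565 on array 4, over a local background of 29 to 53. The channel in Cy5 was the brighter one on every array, whichever RNA it carried. After normalization the log2 ratios of treated over control were 0.30, -0.46, 0.57 and -0.67 on arrays 1 to 4. The 2 arrays with treated RNA in Cy5 lay above 0 and the 2 with treated RNA in Cy3 lay below.

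Averaged over both dye orientations, the CGA ratio was -0.07 (0.956-fold; 95% interval -0.24 to 0.11 on the log2 scale). The dye term of the same probe, which measures red over green whatever the treatment, was 0.50 (0.32 to 0.67) with an adjusted p of 0.0152 in limma. Of the 6 probes, 1 had a dye term that passed, against 6.21% of all tested probes. The log ratios of the scanner software, which uses its own dye normalization, were 0.0027, 0.031, 0.0029 and -0.13 for CGA on arrays 1 to 4, and these did not follow the dye orientation. The scanner software had marked the local background of the CGA spot in red as uneven on 4 of 4 arrays. The spot was kept here in spite of that mark, but it and other marked spots had weight 0 in the loess curve of the normalization. The mark was common among bright spots, with 32.5% to 42.9% of the 1000 brightest red spots carrying it, and the spot was not saturated.

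The gene of the luteinizing hormone beta subunit, LHB, was read by 2 probes. The brighter had raw signals in treated and control RNA of 3608 and 2560 on array 1, 1610 and 2889 on array 2, 9027 and 9579 on array 3, and 3968 and 3029 on array 4. Its log2 ratios were 0.03, -0.36, -0.25 and -0.03, so arrays 2 and 3 were lower in treated RNA and arrays 1 and 4 lay close to 0. The fitted ratio was -0.15 (-0.34 to 0.03), or 0.899-fold (95% interval 0.79 to 1.02), with an adjusted p of 0.99987 in limma. Of all tested probes, 3.04% had a lower fitted ratio.

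The other LHB probe had raw signals of 1817 and 1436 on array 1, 662.5 and 1210.5 on array 2, 4239 and 5970 on array 3, and 2295 and 1360 on array 4. Its log2 ratios were -0.10, -0.38, -0.61 and 0.29, with a fitted value of -0.20 (-0.48 to 0.07). The 2 probes had the same sign on arrays 2 and 3, and opposite signs on arrays 1 and 4. They differed by 0.36 on array 3 and by -0.32 on array 4 (brighter minus other, log2 ratio). In a fit without array 4, only array 2 had treated RNA in Cy3. The p-values of that fit lean on spread borrowed from other probes. They therefore cannot show that this probe's own value on array 4 decided its call. The call of this probe changed, along with those of other probes, on leaving out array 4. Without it the fitted ratio was -0.37 with an adjusted p of 0.000431 in limma, in a fit over 3 arrays in which 3.24% of all tested probes passed. The brighter LHB probe did not pass without array 4, at -0.24 with an adjusted p of 0.0628.

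FSHB, the beta subunit of follicle-stimulating hormone, had raw signals in treated and control RNA of 806 and 571 on array 1, 315.5 and 450.5 on array 2, 2137 and 2171 on array 3, and 1352.5 and 1148.5 on array 4. The log2 ratios were 0.11, -0.09, -0.09 and -0.24. Array 1 lay above 0 and the other three below. The fitted ratio was -0.08 (0.947-fold; -0.24 to 0.08; adjusted p = 0.99987 in limma).

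TSHB, the beta subunit of thyroid-stimulating hormone, was dim, with raw signals of 83 to 174 over a local background of 25 to 38, and was well above background in all 8 channels. The log2 ratios were -0.23, 0.24, -0.05 and 0.11 on arrays 1 to 4, below 0 on both arrays with treated RNA in Cy5 and above 0 on both others. The fitted ratio was 0.02 (-0.13 to 0.18), and of the 5 distinct values that other processing of the 4 arrays gave, 3 lay below 0 and 2 above, from -0.04 to 0.04. TSHB therefore had no settled direction.

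GNRHR, the receptor for gonadotropin-releasing hormone, was also dim. Its tested probe had raw signals in treated and control RNA of 101 and 103 on array 1, 104 and 94 on array 2, 188 and 198.5 on array 3, and 169 and 97 on array 4. The log2 ratios after normalization were 0.0028, 0.07, 0.09 and 0.15, above 0 on all 4 arrays, with array 1 almost at 0. Of the 6 probes, 1 had one sign throughout, and 5.94% of the probes with values on all 4 arrays had one sign. The fitted ratio was 0.08 (1.06-fold; -0.07 to 0.22; adjusted p = 0.99987 in limma). The other GNRHR probe was well above background in 1 of 8 channels, the control RNA of array 3, with raw signals of 43 to 93. It gave no usable ratio.

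The subunit genes were compared with each other on the same array, which asks whether a beta subunit moved apart from the alpha subunit or from another beta subunit. In the 6 pairs, the mean difference of log2 ratios ran from -0.17 (LHB minus TSHB) to 0.09 (TSHB minus CGA). LHB minus CGA was -0.27, 0.10, -0.82 and 0.64 on arrays 1 to 4, a mean of -0.09 with an SD of 0.61 (n = 4 arrays; exact sign-flip permutation test, two-sided p = 0.75). Of the pairs with CGA, each was below 0 on arrays 1 and 3 and above 0 on arrays 2 and 4, the dye orientations in which CGA itself was high and low. The SD over arrays was 0.51 to 0.75 in the 3 pairs with CGA and 0.21 to 0.35 in the 3 without it. LHB minus FSHB was -0.09, -0.27, -0.16 and 0.21, with a mean of -0.08 and an SD of 0.21 (n = 4; exact permutation p = 0.5). All 6 adjusted p-values of this exact permutation test lay between 0.9 and 1. The smallest p that 4 arrays allow is 0.125, so no pair could have passed.

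The level of LHB and FSHB differed between arrays far more than between treated and control RNA on 1 array. A level here is the log2 signal of a channel after loess and quantile scaling of the average signal between arrays, and it is compared only within a probe. In control RNA, LHB was at 11.80, 11.35, 13.07 and 11.70 on arrays 1 to 4, and in treated RNA at 11.83, 10.99, 12.82 and 11.67. Array 3 was the highest and array 2 the lowest in both channels. Both channels of a probe are read from the same spot, so their levels are not independent. The highest control level was 3.30-fold the lowest, and the highest treated level 3.55-fold the lowest. Of 25038 probes with values on all arrays, 99.2% had a smaller range in control RNA, and the median probe had a range of 1.33-fold.

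FSHB was at 9.65, 8.76, 10.85 and 10.34 in control RNA and at 9.76, 8.66, 10.76 and 10.10 in treated RNA. Arrays 3 and 4 were high and array 2 was low in both channels. The range was 4.28-fold in control and 4.29-fold in treated RNA, and 99.7% of probes had a smaller control range. The other LHB probe had a control range of 4.68-fold, with the array order of the brighter probe (3, 1, 4, 2 from high to low) in both channels. The SD of the array means was 0.75 for LHB and 0.89 for FSHB, and the root mean square of the treated minus control difference within arrays was 0.22 and 0.15. Their quotient was 3.38 for LHB and 5.98 for FSHB, with a median of 0.92 over all probes. It was 2.22 for the other LHB probe, whose treated and control values lay farther apart, and 3.03 for GNRHR. No group label separates the arrays, so these values describe the 4 arrays and carry no test.

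**Figure D2:**
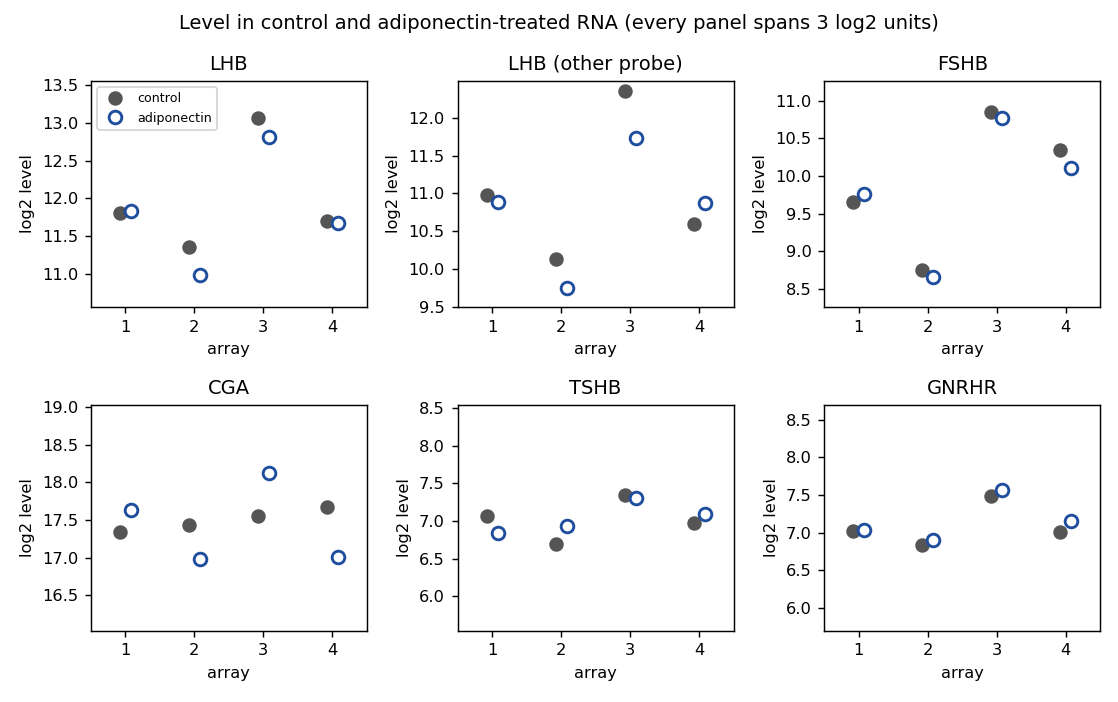
Log2 level of each tested probe (vertical axis, every panel spanning the same 3 log2 units) on arrays 1 to 4, with control RNA as filled and adiponectin-treated RNA as open points. For LHB and FSHB the 2 points of an array lie close together, array 3 is the highest and array 2 the lowest; for CGA the open points are high on arrays 1 and 3 and low on arrays 2 and 4.

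The LHB range depended on array 3. Without it, the brighter LHB probe had a control range of 1.37-fold (67.5% of probes smaller) and a treated range of 1.80-fold (92.1% smaller). The other LHB probe then had a control range of 1.81-fold (92.6% smaller) and a treated range of 2.20-fold (97.0% smaller). FSHB kept a control range of 3.00-fold without array 3 (99.1% of probes smaller) and of 2.30-fold without array 2 (97.9% smaller), and its treated range was then 2.71-fold and 2.00-fold. The treated range of LHB without array 2 was 2.21-fold. The scanner software's processed signal was also scaled to each channel's 75th percentile. The control ranges were then 3.19-fold for LHB (96.0% of probes smaller) and 5.50-fold for FSHB (98.8% smaller), and the median probe had 1.51-fold. With no scaling between arrays the ranges were 4.14-fold (99.4% smaller) and 5.50-fold (99.7% smaller), with a median of 1.44-fold.

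**Figure D3:**
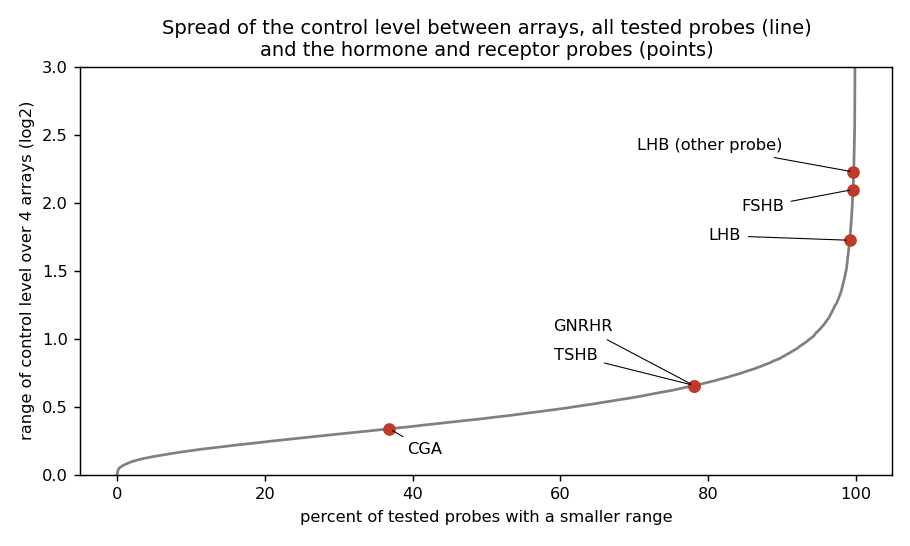
Range of the control level over the 4 arrays in log2 units (vertical axis) against the percent of 25038 probes with a smaller range (horizontal axis); the line holds all these probes and the points mark the tested probes of the 5 genes. LHB and FSHB lie at the steep right end, TSHB and GNRHR near 78%, and CGA at 36.9%.

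TSHB, GNRHR and CGA had smaller control ranges. The control level of TSHB was 7.07, 6.69, 7.34 and 6.98 on arrays 1 to 4, a range of 1.58-fold. That of GNRHR was 7.03, 6.83, 7.49 and 7.00, also a range of 1.58-fold, and the treated level of 7.03, 6.90, 7.57 and 7.16 differed from it by at most 0.15 on an array. Both ranges were larger than those of 78.2% and 78.1% of probes. The background correction adds an offset, which compresses ratios of signals this close to background. On the scanner software's scale, the range was 1.99-fold for TSHB and 2.60-fold for GNRHR. The control level of CGA was 17.34, 17.43, 17.56 and 17.68, a range of 1.26-fold, with 36.9% of probes smaller, and its treated level ranged over 2.21-fold, along the dye orientation.

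Averaged over both channels, all 6 tested probes, 2 of them of LHB, were highest on array 3 and lowest on array 2. That order was held by 10.6% of probes with values on all arrays. The single channels did not all follow it. The control level of CGA was highest on array 4. The treated level of TSHB was lowest on array 1, with 6.84, 6.93, 7.30 and 7.09 on arrays 1 to 4. The neighbours in the averaged order were not equally separated. LHB was at nearly the same control level on arrays 1 and 4, while FSHB was higher on array 4 than on array 1 in both channels. NR5A1 had control levels of 7.06, 6.84, 7.46 and 7.03, in the order of LHB, but treated levels of 6.97, 7.04, 7.16 and 7.21, in another. Among 26 markers of other cell types, 4 were highest on array 3 and lowest on array 2 in control RNA, against 11.1% of all probes. TSHB, which had that order in control RNA too, is not counted among the 26.

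The genes of other pituitary hormones ran in other orders. PRL was at 16.50, 16.58, 15.82 and 15.35 in control RNA, and GH1 at 15.84, 16.19, 15.73 and 15.27, both highest on array 2 and lowest on array 4. POMC was at 13.73, 13.92, 14.22 and 12.89, highest on array 3 and lowest on array 4. Markers of other cells differed between arrays too. The summed control level of the 3 tested endothelial markers was 4.49-fold higher on array 1 than on array 4. That of the 3 macrophage markers was 1.58-fold higher on array 3 than on array 2, with 691, 447, 707 and 699 on arrays 1 to 4. That of the 2 folliculostellate markers was 1.52-fold higher on array 3 than on array 2, with 3976, 3635.5, 5524 and 5418. Single markers differed, as the control level of AIF1 (macrophages) was highest on array 1 and that of SOX2 (folliculostellate cells) on array 4. The part of these other cells in the differences of LHB and FSHB was not tested.

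The fitted ratios of these other hormone genes were near the -0.08 of FSHB, and smaller in size than the -0.15 of LHB. The fitted ratio was -0.09 (-0.27 to 0.09) for GH1, -0.07 (-0.26 to 0.12) for PRL and -0.07 (-0.35 to 0.21) for POMC, and none passed the limma test. These are the brightest probes. The 4 PRL probes ran from -0.15 to -0.07, and the other POMC probe was at -0.25. On array 2 the ratio was -0.36 for LHB, -0.40 for GH1, -0.31 for PRL and -0.45 for POMC, but -0.09 for FSHB and 0.24 for TSHB. These ratios carry no dye correction.

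For each gene, the 3 other named genes with the most similar ratios were found as those with the smallest root mean square difference over the 4 arrays, among 1849 named genes. The nearest to LHB were SLC11A2 at 0.05, PRL at 0.08 and RHCG at 0.08. The nearest to FSHB were SCG5, which encodes a granule protein of neuroendocrine cells, at 0.02, SLC35A3 at 0.03 and NCK2 at 0.03. For CGA the nearest genes were farther off, SLC16A1 at 0.13, INSIG2 at 0.14 and RACK1 at 0.15, and each of these also had ratios above 0 on arrays 1 and 3 and below 0 on arrays 2 and 4. For TSHB they were MFAP1 and PEX19, both at 0.03, and IL13RA1 at 0.03. For GNRHR they were DHDH at 0.02, and FABP6 and RIIAD1 at 0.04. With 4 values per gene, such a likeness describes these arrays only.

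The pathways around the 5 genes were read from 8 lists with 154 genes in all, of which 71 had a probe with a matching symbol and 65 were tested. None of the 65 passed at an adjusted p under 0.05, and 1 had an unadjusted p under 0.05. Of the 65, 26 had a fitted ratio above 0 and 39 below, with a median of -0.02. Over all 1957 named genes tested, 1049 lay above 0 and 908 below, 41 had an unadjusted p under 0.05 and the median was 0.006.

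GnRH signals through Gq proteins, calcium and kinases, and 9 of the 37 listed genes of that pathway were tested. Of these, 3 lay above 0 and 6 below, with a median of -0.04. RGS2, a regulator that shortens Gq signalling, had log2 ratios of 0.05, -0.19, -0.44 and -0.16 on arrays 1 to 4 and a fitted ratio of -0.18 (-0.38 to 0.01; adjusted p = 0.99987 in limma). GNAQ and GNA11, the alpha subunits of the G proteins to which the GnRH receptor couples, had fitted ratios of -0.07 and -0.04, and the kinase gene SRC had -0.06.

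Of 29 transcription factors of gonadotropes and thyrotropes, 9 were tested, with 4 above and 5 below 0 and a median of -0.0020. TCF7L2, a partner of beta-catenin, had the 1 unadjusted p under 0.05 among the 8 pathway lists, with a fitted ratio of 0.16 (0.0031 to 0.33; adjusted p = 0.99987 in limma). It was above 0 on all 4 arrays, from 0.01 to 0.39, but its 3 tested probes had fitted ratios of -0.03 to 0.16. NR5A1 had a fitted ratio of -0.0020 from its brightest probe and 0.08 from its other. POU1F1, which drives TSHB and the growth hormone and prolactin genes, was at -0.08. FOS, an immediate early gene, was at 0.07.

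Activin raises FSHB transcription, and inhibin and follistatin oppose it. In this system 13 of 24 listed genes were tested, with 4 above and 9 below 0 and a median of -0.03. FST, which encodes follistatin, had log2 ratios of 0.06, -0.35, 0.16 and -0.29, a fitted ratio of -0.11 (-0.25 to 0.04) from its brightest probe and 0.0059 from its other. INHBA, the activin and inhibin beta A subunit, was at -0.03, and its other tested probe at 0.06. BMP7 was at 0.09, the BMP antagonist gene NOG at -0.04 and SMAD4, the common mediator of this family, at -0.04.

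Among the receptors and cofactors of steroid feedback, 8 of 11 genes were tested, with 5 above and 3 below 0 and a median of 0.03. ESR1, the oestrogen receptor alpha gene, had a fitted ratio of -0.06 (-0.20 to 0.09) and lay below 0 on all 4 arrays, from -0.10 to -0.0020. The glucocorticoid receptor gene NR3C1 was at 0.08, with its 3 tested probes running from -0.05 to 0.20. The coactivator genes NCOA1 and NCOA2 were at -0.06 and 0.14, although the other tested probe of NCOA2 was at -0.13. Of the genes of TRH and thyroid hormone feedback on TSHB, 5 of 11 were tested, with 2 above and 3 below 0. TRHR, the receptor for thyrotropin-releasing hormone, was at 0.03, and THRA, a thyroid hormone receptor gene, at 0.03. The deiodinase gene DIO2 was at -0.05 and the retinoid receptor gene RXRG at -0.07, with the other tested probe of RXRG at 0.04.

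The glycoprotein hormones are folded and glycosylated before storage. Of 18 genes listed for these steps 6 were tested, with 2 above and 4 below 0 and a median of -0.02. The fucosyltransferase gene FUT8 was at -0.09, the sialyltransferase gene ST3GAL1 at 0.07, and the N-glycan enzyme genes MGAT1 and MGAT2 at 0.05 and -0.06. The other tested probe of MGAT1 was at -0.09. Of 14 secretory granule genes 9 were tested, with 4 above and 5 below 0 and a median of -0.04. CHGB, which encodes the granule protein chromogranin B, had a fitted ratio of -0.17 (-0.36 to 0.02) over 3 arrays from its brightest probe. That was the lowest of its 13 tested probes, which were all fitted below 0, the highest at -0.05. These probes read the same gene on the same arrays, and 49.3% of all tested probes were fitted below 0. The prohormone carboxypeptidase gene CPE was at -0.09, RAB27A at 0.07 (its other tested probe at -0.02) and the secretogranin gene SCG2 at -0.06.

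The receptors through which adiponectin acts were measured in these cells. ADIPOR1 had log2 ratios of -0.05, 0.07, -0.28 and 0.19 and a fitted ratio of -0.02 (-0.18 to 0.14). Its other tested probe was at 0.03. ADIPOR2 was at 0.0081 (-0.14 to 0.16). CDH13, which encodes the adiponectin-binding T-cadherin, was at -0.07 and PRKAA2, a catalytic subunit of AMP-activated kinase, at 0.04. Of the 6 tested genes of this list, 2 lay above and 4 below 0.

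**Figure D4:**
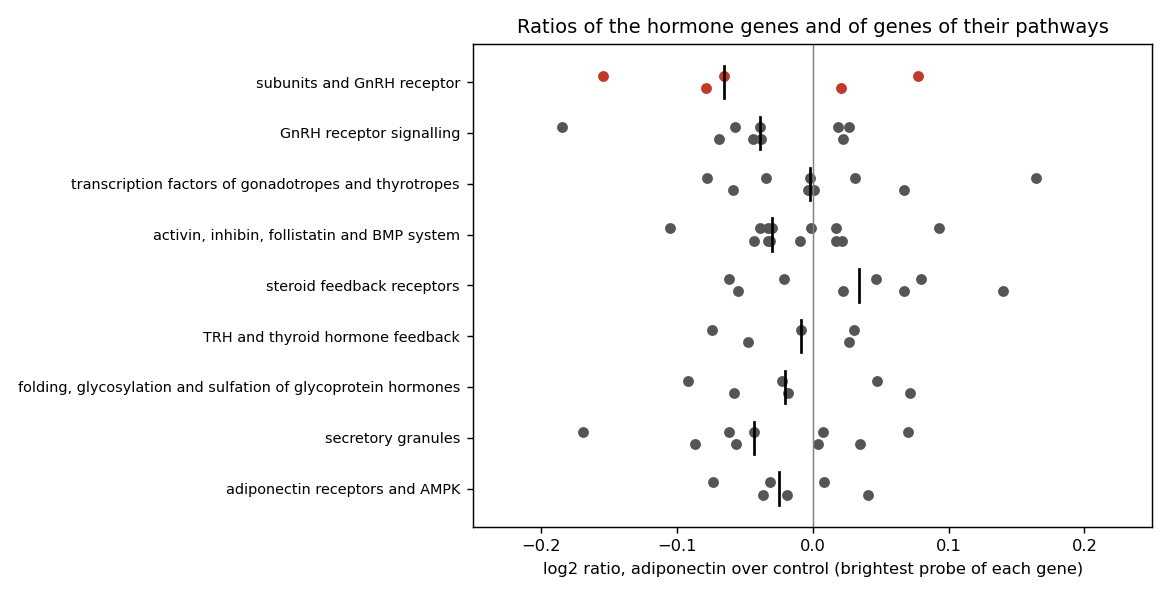
Fitted log2 ratio of adiponectin over control (horizontal axis) for the 5 genes in red and for the tested genes of the 8 pathway lists in grey, 1 point per gene, with the median of each row as a black bar. All points lie between -0.18 and 0.16, and GNRHR, at 0.08, lies above the 9 tested genes of GnRH receptor signalling.

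Several alternatives to the processing of the 4 arrays, such as the filter on dim probes, left each fitted ratio at the same value. Those that moved it were other background corrections, median centring in place of loess, the scanner software's own ratios and, for LHB, the mean of both probes. They gave 6 distinct values for LHB, from -0.18 to -0.07, and 5 for FSHB, from -0.11 to -0.02, all below 0. The 5 distinct values of GNRHR lay above 0, from 0.06 to 0.16. Of the 5 for CGA, 4 lay below 0 and 1, from median centring, was 0.05. The direction rests on the channel labels, and the signs on arrays 2 and 4 of the authors' series matrix also follow these labels. The labelling protocol instead describes Cy5 for treated and Cy3 for control cells throughout, and under that reading the ratio was 0.04 for LHB, 0.09 for FSHB, 0.50 for CGA, -0.16 for TSHB and -0.03 for GNRHR. CGA then passed, with an adjusted p of 0.00835 in limma, in a fit in which 9.05% of all tested probes passed. Treatment and dye cannot be told apart under that reading. Its 5 ratios are the dye terms of the reported fit, such as the 0.50 given above for CGA.

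**Figure D5:**
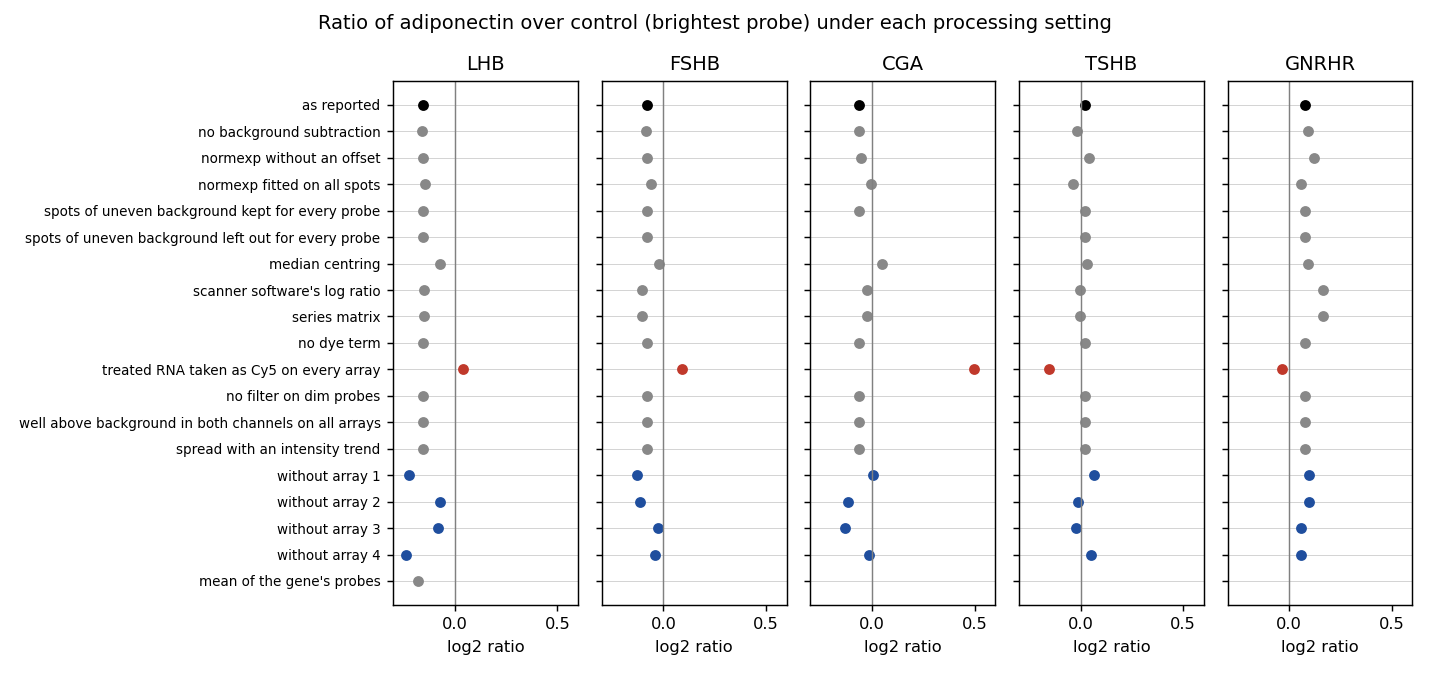
Fitted log2 ratio of adiponectin over control for the brightest probe of each gene (1 panel each, horizontal axis) under every processing setting (rows); black is the value as reported, blue leaves out 1 array, red takes treated RNA as Cy5 on every array, and grey marks the other settings. The red point, which equals the dye term of the reported fit, lies on the other side of 0 from the black one for all 5 genes, at 0.50 for CGA.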

How the data were processed

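Gene expression was measured on 4 two-colour Agilent arrays (design 026440), quantified with Feature Extraction 10.7.3.1, per the file headers. Per the file headers, each deposited scanner file gives median foreground and local background intensity by channel, spot flags, and the log10 of red over green with its p-value. In the authors' series matrix the values are log2 ratios: on each array 99.99% of them matched the scanner's processed signals to within 0.01, once turned to treated over control by the channel labels. Its column medians were -0.04, 0.08, 0.04 and -0.05, so it was not centred.

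Background was corrected with normexp (offset 50, fitted without spots of uneven local background). Ratios were normalized by loess within arrays. Control spots and spots flagged as outliers or as of uneven background, the CGA spot among them, had weight 0 in the loess curve. Outlier-flagged spots and those of uneven background (939 to 1350 of 43803 per array) were left out, except those of the 5 genes, and no spot was saturated. Between 25089 and 29734 spots per channel were well above background. A probe was tested if its treated signal, or its control signal, was well above background on 3 or more of the 4 arrays, with values on at least 3. Red over green log2 ratios were fitted with a dye and a treatment term in limma 3.58.1 (R 4.3.3; lmFit and eBayes, 2 residual degrees of freedom per probe), with two-sided p-values adjusted by Benjamini-Hochberg across the 25913 tested probes (threshold 0.05). Fold changes are ratios of normalized signals, levels are channel signals after loess and Aquantile scaling, and single-array ratios are not dye-corrected. The number of arrays limits the precision. The fit was also run on simulated data with planted changes far larger than the fitted ratios given here. That run therefore does not bear on changes of their size.

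Symbols came from RefSeq by unversioned accession (5578 of 43603 probes), and the brightest tested probe stood for a gene. The genes named were the 5 genes' probes, up to 4 genes of smallest p per pathway list, a fixed set of hormone, receptor and regulator genes, and the 3 genes nearest to each of the 5; some genes under this rule are not reported here. Members and lists were chosen with earlier results of these data known. Alternatives covered background, loess, the filter, the spot flags, the scanner's ratios, the dye term and its reading, and each array left out. The level ranges under other scalings and without each array were chosen after seeing the data. No coordinates or probe sequences were used here.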

Additional observations from a re-analysis of the deposited data

Results flagged for a closer look

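Among 74 sets of 4 array values tested for a value far from the other three, 2 were marked, where chance gives about 3.7. The log2 ratio of treated over control of NCOA2, a steroid receptor coactivator gene, was 0.53 on array 4, while the other arrays lay between -0.03 and 0.06. That of MGAT1, an N-glycan enzyme gene, was 0.32 on array 4, with the other arrays between -0.07 and -0.02. No ratio or level of LHB, FSHB, CGA, TSHB or GNRHR was marked.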

How the results depend on the processing

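The number of probes passing for adiponectin over control was 0 as reported, 2346 where Cy5 was read as the treated RNA throughout, and 0 to 838 with 1 array left out (0 for array 1, 734 for array 2, 1 for array 3 and 838 for array 4, each from a fit with dye orientations out of balance). Reading Cy5 as treated throughout turned the ratios to 0.041 for LHB, 0.090 for FSHB, 0.50 for CGA, -0.16 for TSHB and -0.033 for GNRHR. These values are the dye terms of the fit as reported. Median centring turned CGA to 0.048 and TSHB minus CGA to -0.017, and moved the median of all probes by 0.03. TSHB was -0.018 with no background subtraction, -0.035 with normexp fitted on all spots, and -0.0053 with the scanner software's log ratio and in the series matrix. Without each array in turn, the ratios ran from -0.24 to -0.07 for LHB, -0.37 to -0.03 for its other probe, -0.13 to -0.03 for FSHB, -0.13 to 0.0023 for CGA, -0.024 to 0.066 for TSHB and 0.06 to 0.10 for GNRHR. The pair differences ran from -0.33 to 0.16 for LHB minus CGA, -0.16 to 0.20 for FSHB minus CGA and -0.15 to 0.32 for TSHB minus CGA. The cause of these changes was not tested. The control range in log2 units was 0.73 for CGA with no scaling, and 0.99 for TSHB and 1.38 for GNRHR on the scanner software's scale. CGA has no value when all spots of uneven background are left out. Every ratio was already taken within an array, between its treated and its control RNA, and no further block could be added.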

Other observations

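Other named genes also differed widely between the 4 arrays in control RNA. Of 1849 named genes with values on all arrays, FSHB ranked at 17 and LHB at 41 by the range of the control level. The genes below were chosen after their values were seen. MMP1, a collagenase gene, ranked first, at 10.64, 6.85, 8.21 and 9.19 on arrays 1 to 4 (log2). C3, a complement gene, was at 9.55, 9.25, 12.40 and 12.19, and LTF, the lactoferrin gene, at 7.81, 7.65, 10.23 and 9.80, both high on arrays 3 and 4. SELP, an endothelial adhesion gene, was at 9.86, 8.63, 7.75 and 7.01, high on array 1. S100A8, a calcium-binding protein gene of myeloid cells, was at 13.98, 12.97, 15.03 and 14.61, with array 3 the highest and array 2 the lowest, as for FSHB. The summed level of the 3 tested posterior lobe and nervous tissue markers, led by OXT, was 1.53-fold higher on array 1 than on array 4.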
